A study of Mus musculus with 7 samples.

Results

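The 10 genes described here are markers of microglia and macrophages, the resident phagocytes of the retina and of the tissue behind it: C1qa, C1qb, C1qc, Cx3cr1, Aif1, P2ry12, Trem2, Tyrobp, Cd68 and Ptprc. They were picked by gene symbol from a table of 21861 rows, and all 10 symbols were found once. RNA had been sequenced from cells labelled as retinal pigment epithelium (RPE), the pigmented layer that nourishes the photoreceptors and engulfs their shed outer segments. All libraries came from aged mice treated with an adeno-associated virus (AAV), and cells were collected 12 weeks after treatment. In 3 libraries the virus was AAV-GFP, which served as the control, and in 4 it was AAV-GSTA4, which carries a glutathione transferase that conjugates aldehydes from oxidised lipids. Every library was thus labelled as treated with a vector, and an untreated or young group was not analysed here. The strain, the exact age, the promoter in the vectors and whether a library is 1 animal or a pool are not given in the sources used here, so p-values measure the spread between these libraries only.

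Microglia arise from yolk-sac progenitors and normally lie in the inner retina, and with age or injury they also gather below the photoreceptors, next to the RPE. The choroid behind the RPE has macrophages of its own. C1qa, C1qb and C1qc encode the chains of C1q, the recognition part of the classical complement pathway, which tissue macrophages produce. CX3CR1 is the receptor for the neuronal chemokine fractalkine, and P2RY12 is a nucleotide receptor that guides microglial processes to damaged cells. TREM2 binds lipids and lipoproteins and signals through the adaptor TYROBP. AIF1 (also called IBA1) is an actin-binding protein, CD68 is a glycoprotein of lysosomes, and CD45, the product of Ptprc, is a tyrosine phosphatase of all nucleated blood-derived cells.

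All 10 genes had lower fitted levels in AAV-GSTA4 than in AAV-GFP, and none passed the test over all genes. Their log2 fold changes ran from -1.04 for Aif1 to -0.16 for Cd68, with a median of -0.40, beside a median of -0.07 over the 15075 genes tested. A negative fold change was common in the whole table, at 55.4% of genes. Adjusted p-values of the 10 genes lay between 0.363 and 0.869 by edgeR's quasi-likelihood F-test (adjusted by Benjamini-Hochberg over all of them). That test called 0 of the 15075 genes (0%) at an adjusted p under 0.05, with 1794 (11.9%) at an unadjusted p under 0.05. DESeq2 called 199 genes, 89 of them lower in AAV-GSTA4 (0.783% of the 11369 it adjusted). None of the 199 was 1 of the 10, of which Cx3cr1 was given no adjusted p by DESeq2. At an unadjusted p under 0.05 in edgeR's test, 2 of the 10 genes, C1qc and Aif1, were lower and 0 were higher. Over all genes tested, 6.63% were lower at that level. The same 2 genes were those whose groups did not overlap, where 5.61% of all genes lay lower without overlap and 6.44% higher.

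The libraries held 15329181 to 28998964 counts. The row hGSTA4, read as the transgene from its name, had 1 to 3 counts per AAV-GFP library and 4209, 5239, 45 and 1184 counts in the AAV-GSTA4 libraries, so it separated the labelled groups. The row d2EGFP, read as the control transgene, did not: it had 99, 3970 and 2361 counts in AAV-GFP and 163, 64, 7 and 26 counts in AAV-GSTA4, with AAV-GFP replicate 1 below AAV-GSTA4 replicate 1. The median log2 fold change of the 10 genes was -0.60 without AAV-GFP replicate 1 and -0.45 without AAV-GSTA4 replicate 3, the library with 45 hGSTA4 counts. AAV-GFP replicate 3 stood apart, with a trimmed-mean (TMM) scaling factor of 1.36 against 0.868 to 1.05 in the other 6 and a mean correlation of log2 CPM over genes of 0.838 with the other libraries, against 0.910 to 0.926. Levels below are CPM, counts scaled to a common library size with TMM factors. RPE markers took 3.21% to 9.73% of counts, so the labelled cell type was represented in every library, while the 10 microglia and macrophage genes together took far less, 340 to 636 CPM in AAV-GFP and 278 to 383 CPM in AAV-GSTA4. Rod photoreceptor markers differed between the groups in the same direction. Their 11 genes summed to 12017, 21010 and 36690 CPM in AAV-GFP and to 6564 to 12228 CPM in AAV-GSTA4. Of the 11, 10 were lower at an unadjusted p under 0.05, where 6.63% of all genes were. With TMM scaling, AAV-GFP replicate 3 had both the highest summed rod level and the lowest summed level of the 10 genes in its group. Scaled by library totals, the 10 genes were lowest in AAV-GFP replicate 1, at 416 CPM against 462 CPM in replicate 3. The part of retinal tissue in the levels of the 10 genes was not tested.

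The 3 C1q genes lie side by side on the minus strand of chromosome 4 (GRCm38, GENCODE M21): C1qb at chr4:136880129-136886187, C1qc at chr4:136889804-136893065 and C1qa at chr4:136895917-136898803. Aif1 lies at chr17:35170991-35176068 on the minus strand, Trem2 at chr17:48346401-48354147 on the plus strand and Cd68 at chr11:69664213-69666153 on the minus strand. Cx3cr1 (chr9:119901616-120069879), P2ry12 (chr3:59216272-59262871) and Ptprc (chr1:138062861-138175708) are on minus strands, and Tyrobp (chr7:30413760-30417585) is on the plus strand. Because the fitted levels of the 10 genes all differed in the same direction, the DNA before their starts was searched for GAGGAA, the core of sites bound by PU.1, the transcription factor on which macrophages and microglia depend. Windows of 300 bases, from 250 before to 50 after the start, came from RefSeq (GRCm38.p6) and covered 8 of the 10 genes in 9 windows. The motif was found on either strand in 6 of the 9 windows and in 6 of the 8 genes, against 28.3% of all 32851 windows. C1qb, C1qc, Aif1, Trem2, Cd68 and Ptprc held it, and Cx3cr1 and P2ry12 did not. For Cx3cr1 and both windows of Ptprc, all 250 bases before the RefSeq start lay inside the annotated gene. The Ptprc match was thus before a RefSeq start but not outside the gene. The stretches before the starts of 5 of these genes are shown, 5′ to 3′ on the strand of the gene, to let the C1q neighbours be compared with Aif1, which had the largest fitted difference, and Trem2 and Cd68, which had small ones. Capitals mark GAGGAA or its reverse complement TTCCTC. The C1qb and Aif1 matches begin 30 and 7 bases before the start, that of C1qc 193 bases and that of Trem2 40 bases before it; Cd68 has one 225 bases before and another 29 bases after its start, outside the stretch shown.
C1qb, chr4:136886201-136886450, minus strand: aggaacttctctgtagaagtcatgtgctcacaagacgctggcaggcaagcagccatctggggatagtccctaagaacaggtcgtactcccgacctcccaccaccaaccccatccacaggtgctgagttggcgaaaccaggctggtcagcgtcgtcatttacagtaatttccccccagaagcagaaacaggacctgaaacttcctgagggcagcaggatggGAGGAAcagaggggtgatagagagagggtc
C1qc, chr4:136893066-136893164, minus strand, the 99 bases outside the annotated gene: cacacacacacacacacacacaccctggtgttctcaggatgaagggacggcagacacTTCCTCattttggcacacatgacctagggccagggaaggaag
Aif1, chr17:35176053-35176302, minus strand, with 16 bases inside the annotated gene: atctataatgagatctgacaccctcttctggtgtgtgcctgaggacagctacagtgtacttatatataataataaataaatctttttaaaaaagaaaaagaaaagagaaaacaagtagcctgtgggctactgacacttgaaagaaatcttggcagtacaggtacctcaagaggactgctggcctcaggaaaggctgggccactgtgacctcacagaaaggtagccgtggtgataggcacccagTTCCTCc
Trem2, chr17:48346151-48346400, plus strand: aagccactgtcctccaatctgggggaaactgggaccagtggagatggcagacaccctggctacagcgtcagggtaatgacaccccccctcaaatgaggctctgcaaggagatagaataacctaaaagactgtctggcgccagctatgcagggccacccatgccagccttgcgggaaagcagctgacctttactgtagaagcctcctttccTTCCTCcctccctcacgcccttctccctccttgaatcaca
Cd68, chr11:69666171-69666420, minus strand: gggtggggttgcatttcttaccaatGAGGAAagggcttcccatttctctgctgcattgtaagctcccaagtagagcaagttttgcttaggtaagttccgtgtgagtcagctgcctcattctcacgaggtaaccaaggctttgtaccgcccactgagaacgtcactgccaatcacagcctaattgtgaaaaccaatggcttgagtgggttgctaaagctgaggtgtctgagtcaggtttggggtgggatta
A match describes these letters only. It was present before genes with the largest fitted difference (Aif1 and C1qc) and the smallest (Cd68).

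**Figure D1:**
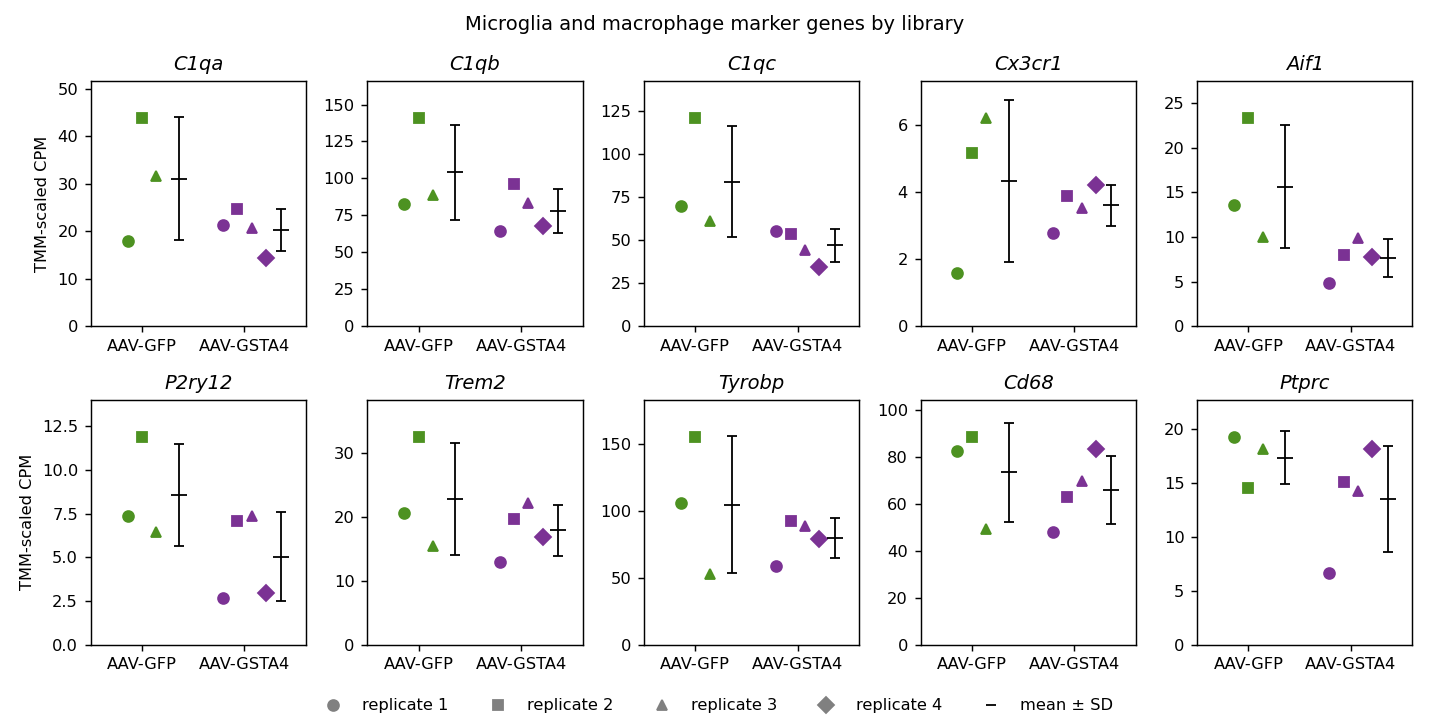
Level of each of the 10 genes in each library, in TMM-scaled CPM (y axis, starting at 0, a scale for each gene), for 3 AAV-GFP libraries in green and 4 AAV-GSTA4 libraries in purple; marker shapes give the replicate and black bars the mean ± SD. AAV-GFP replicate 2 is the highest of the 7 libraries in 8 of the 10 panels, and only C1qc and Aif1 show groups that do not overlap.

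The C1q chains were the complement genes among the 10. With libraries in replicate order, C1qc was at 69.95, 121 and 61.1 CPM in AAV-GFP and at 55.4, 53.2, 44.4 and 34.3 CPM in AAV-GSTA4. All 4 AAV-GSTA4 libraries thus lay below all 3 AAV-GFP libraries, with 5.77 CPM between the nearest of them. The group means were 83.9 ± 32.1 CPM for AAV-GFP (SD, n = 3) and 46.8 ± 9.60 CPM for AAV-GSTA4 (SD, n = 4). This is a log2 fold change of -0.84 ± 0.28 (SE), for which edgeR's test gave an adjusted p of 0.363. A two-sided exact permutation test of its log2 CPM gave p = 0.0286, the smallest that 3 against 4 libraries allow. By the same permutation test, the other genes besides Aif1 had p-values of 0.229 to 0.943. None of these was adjusted for the number of genes.

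C1qb was at 82.5, 141 and 88.9 CPM in AAV-GFP and at 64.2, 96.0, 83.5 and 67.8 CPM in AAV-GSTA4. The groups overlapped, because AAV-GSTA4 replicates 2 and 3 exceeded AAV-GFP replicate 1. C1qb had the smallest standard error of the 10 genes, and its log2 fold change was -0.42 ± 0.25 (SE), for which edgeR's test gave an adjusted p of 0.528. C1qa was at 17.8, 43.8 and 31.6 CPM in AAV-GFP and at 21.3, 24.8, 20.6 and 14.2 CPM in AAV-GSTA4. Its lowest AAV-GFP library lay below 3 of the 4 AAV-GSTA4 libraries. Its fitted log2 difference was -0.62 ± 0.33 (SE), for which edgeR's test gave an adjusted p of 0.473.

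The chains did not keep 1 ratio over the libraries. C1qc counts were 0.848, 0.858 and 0.687 of C1qb counts in AAV-GFP and 0.862, 0.554, 0.531 and 0.506 in AAV-GSTA4 replicates 1 to 4. AAV-GSTA4 replicate 1 was thus at the level of the highest AAV-GFP libraries, and the other 3 AAV-GSTA4 libraries lay below every AAV-GFP library. C1qa counts were 0.216 to 0.355 of C1qb counts in AAV-GFP and 0.210 to 0.332 in AAV-GSTA4, with the groups intermixed.

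Among the receptors that microglia use to sense neurons and damage, P2ry12 was at 7.36, 11.9 and 6.43 CPM in AAV-GFP and at 2.68, 7.10, 7.35 and 2.95 CPM in AAV-GSTA4. AAV-GSTA4 replicates 1 and 4 were low, whereas replicates 2 and 3 were within the AAV-GFP range. Its fitted log2 difference was -0.77 ± 0.48 (SE), for which edgeR's test gave an adjusted p of 0.532. Cx3cr1 was at 1.58, 5.17 and 6.19 CPM in AAV-GFP and at 2.79, 3.89, 3.53 and 4.21 CPM in AAV-GSTA4. AAV-GFP replicate 1 held the lowest value of all 7 libraries, on 34 counts, and the other 2 AAV-GFP libraries held the highest. The log2 fold change of Cx3cr1 was -0.26 ± 0.52 (SE), the least precise of the 10, for which edgeR's test gave an adjusted p of 0.869. Without AAV-GFP replicate 3 it was 0.083. The ratio of Cx3cr1 to P2ry12 counts ranged from 0.215 to 1.43 over the libraries, a wider span than that of any other pair of genes set side by side here.

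The lipid-sensing receptor and its adaptor kept closer together. Trem2 was at 20.6, 32.6 and 15.4 CPM in AAV-GFP and at 12.9, 19.8, 22.2 and 16.9 CPM in AAV-GSTA4. Tyrobp, the adaptor, was at 106, 155 and 52.6 CPM in AAV-GFP and at 58.7, 92.6, 88.2 and 79.1 CPM in AAV-GSTA4. Trem2 counts were 0.195 to 0.293 of Tyrobp counts in AAV-GFP and 0.213 to 0.252 in AAV-GSTA4. For both genes AAV-GFP replicate 2 was the highest library. AAV-GFP replicate 3 lay below 3 of the 4 AAV-GSTA4 libraries for Trem2 and below all 4 for Tyrobp. This position holds for the TMM scale, where the factor of that library was 1.36. The log2 fold changes were -0.35 ± 0.31 (SE) for Trem2 and -0.39 ± 0.34 (SE) for Tyrobp, with adjusted p-values of 0.678 and 0.664 in edgeR's test. Without AAV-GFP replicate 2 they were -0.00292 and 0.0114.

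Of the structural and pan-leukocyte markers, Aif1 was at 13.6, 23.3 and 10.04 CPM in AAV-GFP and at 4.79, 8.01, 9.93 and 7.75 CPM in AAV-GSTA4. The groups did not overlap, but only 0.104 CPM lay between AAV-GFP replicate 3 and AAV-GSTA4 replicate 3. The group means were 15.7 ± 6.88 CPM for AAV-GFP (SD, n = 3) and 7.62 ± 2.12 CPM for AAV-GSTA4 (SD, n = 4). The log2 fold change was -1.04 ± 0.38 (SE), for which edgeR's test gave an adjusted p of 0.374, while a two-sided exact permutation test of its log2 CPM returned p = 0.0571.

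Cd68 was at 82.7, 88.6 and 49.4 CPM in AAV-GFP and at 48.2, 62.8, 69.8 and 83.3 CPM in AAV-GSTA4. Both groups spanned nearly the same range, and the log2 fold change was -0.16 ± 0.27 (SE), for which edgeR's test gave an adjusted p of 0.845. Ptprc was at 19.3, 14.6 and 18.2 CPM in AAV-GFP and at 6.63, 15.1, 14.2 and 18.2 CPM in AAV-GSTA4. It differed from the other genes in that AAV-GFP replicate 2 was the lowest of its group, and AAV-GSTA4 replicate 1 was far below the other 6 libraries. Its fitted log2 difference was -0.36 ± 0.35 (SE), for which edgeR's test gave an adjusted p of 0.706.

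**Figure D2:**
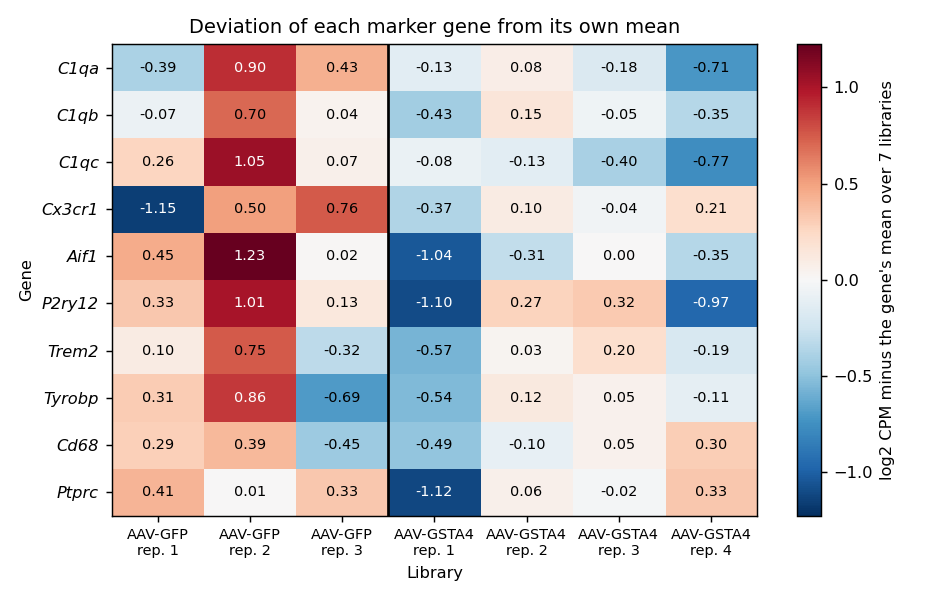
Log2 CPM of each gene (rows) in each library (columns) minus that gene's mean over the 7 libraries; red is above and blue below the gene's own mean, and the black line separates AAV-GFP from AAV-GSTA4. The column of AAV-GFP replicate 2 is positive for all 10 genes and that of AAV-GSTA4 replicate 1 is negative for all 10.

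Libraries of the same group also differed from each other. AAV-GFP replicate 2 was the highest of all 7 libraries for 8 of the 10 genes, all but Cx3cr1 and Ptprc, and AAV-GSTA4 replicate 1 was the lowest for 6. Summed over the 10 genes, the level was 421, 636 and 340 CPM in AAV-GFP replicates 1 to 3 and 278, 383, 364 and 329 CPM in AAV-GSTA4 replicates 1 to 4. AAV-GFP replicate 3 lay below AAV-GSTA4 replicates 2 and 3, so the sums overlapped with TMM scaling. Scaled by library totals, they were 416, 666 and 462 CPM in AAV-GFP and 268, 346, 316 and 307 CPM in AAV-GSTA4. The groups did not overlap on that scale. With TMM, the group means were 466 ± 153 CPM for AAV-GFP (SD, n = 3) and 338 ± 46.3 CPM for AAV-GSTA4 (SD, n = 4). The difference of these group means was -0.42 in log2, beside SDs of 0.46 and 0.20 in log2 within the groups. In bulk RNA, fewer cells of a type and less RNA per cell cannot be told apart. The spread was wider in AAV-GFP: the coefficient of variation was larger there than in AAV-GSTA4 for 8 of the 10 genes, the exceptions being P2ry12 and Ptprc. Without AAV-GFP replicate 2, the median log2 fold change of the 10 genes was -0.21, with 8 of 10 negative and 0 lower at an unadjusted p under 0.05, where 6.81% of all genes were, beside a median of -0.09 over all genes. Without AAV-GFP replicate 3, the library that stood apart, the median was -0.59, with 9 of 10 negative and C1qc, Aif1 and Tyrobp lower at an unadjusted p under 0.05, where 5.74% of all genes were.

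Relative to one another, the genes were most stable for C1qb and least for Cx3cr1. After subtracting the mean log2 CPM of all 10 genes in the same library, C1qb varied by 0.28 over the 7 libraries and Cx3cr1 by 1.93. On this scale Aif1 was lower in AAV-GSTA4 by 0.51, at -1.42 ± 0.21 (SD, n = 4) against -0.92 ± 0.27 (SD, n = 3), and Cx3cr1 was higher by 0.42, at -2.45 ± 0.22 (SD, n = 4) against -2.87 ± 0.97 (SD, n = 3). The groups overlapped for all 10 genes on this scale.

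**Figure D3:**
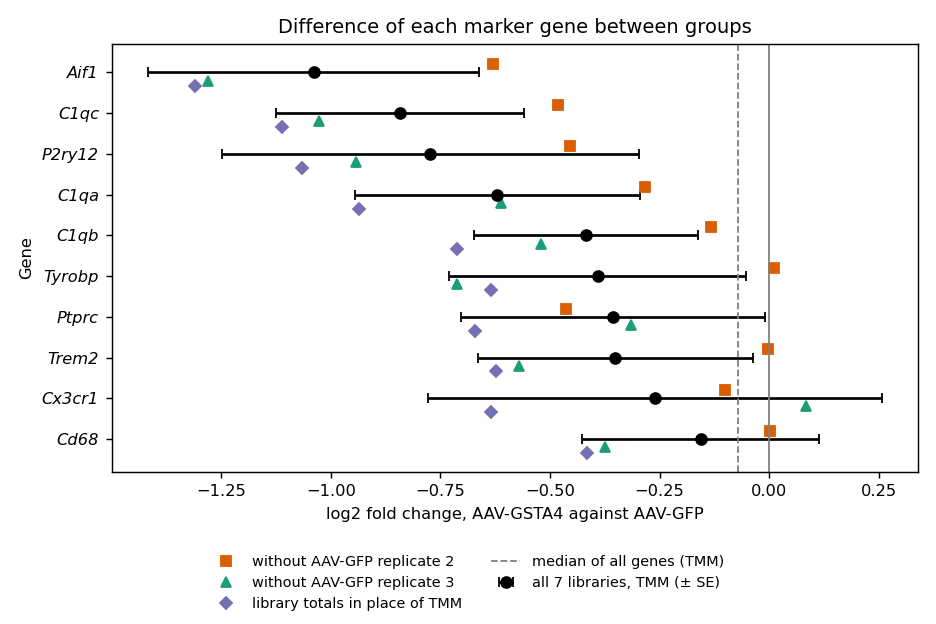
Log2 fold change of each gene, AAV-GSTA4 against AAV-GFP (x axis), ordered from the most negative; black circles with bars are the fit to all 7 libraries ± SE, and coloured markers are fits without AAV-GFP replicate 2, without AAV-GFP replicate 3 and with scaling by library totals. The black circles run from -1.04 to -0.16, and without AAV-GFP replicate 2 the values of Tyrobp, Cd68 and Trem2 lie at 0.0114, 0.00273 and -0.00292.

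The scaling moved every gene in the same direction. When libraries were scaled by their totals alone, all genes had a median log2 fold change of -0.37 and the 10 genes one of -0.69. The distance of the 10 genes from all genes was -0.33 with TMM and -0.32 with totals. Scaling moves all genes nearly alike, so this distance could hardly change with it. With TMM but without AAV-GFP replicate 2, the distance was -0.12. Under library totals 6 of the 10 genes were lower at an unadjusted p under 0.05, where 14.1% of all genes were.

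Y-linked genes had high counts in AAV-GFP replicate 1 and AAV-GSTA4 replicates 3 and 4 (307 to 465 CPM in sum), above a limit of 10 CPM that divided the libraries. The other 4 libraries had 0.0772 to 2.83 CPM, the highest of them AAV-GSTA4 replicate 2. In the 3 libraries above the limit Kdm5d was at 17.2, 19.98 and 17.4 CPM and Uty at 59.6, 55.7 and 52.2 CPM. The labels state no sex. Kdm5d and Uty had adjusted p-values of 0.919 and 0.954 between the groups in edgeR's test. Among the 3 libraries above the limit, 9 of the 10 genes had a lower mean log2 CPM in AAV-GSTA4, with a median difference of -0.20, and Cx3cr1 was higher by 1.28. Among the other 4 libraries all 10 were lower in AAV-GSTA4, with a median difference of -0.68. The first class holds 1 AAV-GFP library and the second 2 in each group, and neither difference was tested.

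Levels of different genes were compared per kilobase of annotated exon. Tyrobp was the highest at 135 ± 51.1 CPM per kb (SD over the 7 libraries) and was above C1qb, at 81.9 ± 23.3 CPM per kb, in 6 of 7 libraries. Cd68 followed at 55.1 ± 13.1, C1qc at 32.5 ± 14.5 and C1qa at 23.9 ± 9.58 CPM per kb, and each exceeded the next gene in order in all 7 libraries, whereas C1qb exceeded Cd68 in 6. Aif1 was at 7.22 ± 3.94, Trem2 at 4.06 ± 1.29 and P2ry12 at 2.57 ± 1.22 CPM per kb. Cx3cr1, at 0.868 ± 0.336, and Ptprc, at 0.83 ± 0.23 CPM per kb, could not be ordered, since Cx3cr1 was above Ptprc in 5 of 7 libraries. The order depended on the gene models: with exons of the basic transcript set only, Trem2, at 17.6 CPM per kb, was above Aif1, at 10.97, in all 7 libraries, Ptprc (2.96) and P2ry12 (2.68) could not be ordered, with Ptprc higher in 5 of 7, and C1qc, at 52.1, lay below Cd68 in only 4 of 7 libraries.

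Other genes of the same cells and pathways were taken from lists. In 5 lists of microglial, myeloid and TREM2 signalling genes, 55 genes were tested and 0 passed the adjusted threshold. Of the 55, 45 had a negative log2 fold change, as did 55.4% of all genes. At an unadjusted p under 0.05, 2 were lower and 1 was higher, where 6.63% and 5.27% of all genes were. The median log2 fold change of the 55 genes was -0.39. Of 9 tested genes of homeostatic microglia, 6 were negative (median -0.34). Gpr34, a lysophospholipid receptor of microglia, was at 10.4, 25.2 and 12.6 CPM in AAV-GFP and at 8.53, 9.60, 6.05 and 3.21 CPM in AAV-GSTA4. The groups did not overlap, and the adjusted p was 0.374 in edgeR's test. Selplg, which encodes a selectin ligand, was at 11.1 ± 1.11 CPM in AAV-GFP (SD, n = 3) against 7.11 ± 1.14 CPM in AAV-GSTA4 (SD, n = 4), also without overlap, with an adjusted p of 0.427 in edgeR's test.

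Of 16 other myeloid and macrophage genes, 15 were negative (median -0.45). Adgre1, which encodes the macrophage marker F4/80, was at 26.4 ± 6.08 CPM in AAV-GFP (SD, n = 3) against 16.6 ± 2.98 CPM in AAV-GSTA4 (SD, n = 4), without overlap and with an adjusted p of 0.382 in edgeR's test. Csf1r, the receptor for the macrophage growth factors CSF1 and IL-34, was the only one of the 16 with a positive value: it was at 258, 239 and 127 CPM in AAV-GFP and at 520, 291, 568 and 421 CPM in AAV-GSTA4. All 4 AAV-GSTA4 libraries were above all 3 AAV-GFP libraries, a log2 fold change of 1.11 ± 0.34 (SE), for which edgeR's test gave an adjusted p of 0.363. The level of this receptor thus did not follow the 10 marker genes, and the difference between it and them was not tested.

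Of 9 markers of perivascular and border macrophages 8 were negative (median -0.61), and of 11 tested genes of activated microglia 10 were (median -0.53), with 0 of either list at an unadjusted p under 0.05. Mrc1, the mannose receptor, was at 7.89 ± 1.80 CPM in AAV-GFP (SD, n = 3) against 5.18 ± 1.36 CPM in AAV-GSTA4 (SD, n = 4), and Folr2 was at 1.67 ± 1.77 CPM in AAV-GFP (SD, n = 3) against 0.439 ± 0.246 CPM in AAV-GSTA4 (SD, n = 4), with adjusted p-values of 0.527 and 0.467 in edgeR's test. Folr2 was at 3.70 CPM in AAV-GFP replicate 3 against 0.466 and 0.850 CPM in replicates 1 and 2. In AAV-GSTA4 replicate 1 it was at 0.105 CPM, below 3 counts (0.158 CPM in that library). Without AAV-GFP replicate 3 the log2 fold change of Folr2 was -0.57, in place of -1.90. Igf1, a growth factor, was at 56.6 ± 27.4 CPM in AAV-GFP (SD, n = 3) against 31.6 ± 9.97 CPM in AAV-GSTA4 (SD, n = 4), and Lpl, lipoprotein lipase, at 30.4 ± 6.95 CPM in AAV-GFP (SD, n = 3) against 19.0 ± 6.47 CPM in AAV-GSTA4 (SD, n = 4), with adjusted p-values of 0.425 and 0.432 in edgeR's test.

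Downstream of TREM2 and TYROBP, the median over 10 signalling genes was -0.02 in log2, with 6 negative and 4 positive. Plcg2, the phospholipase activated by TREM2, was at 5.18 ± 2.03 CPM in AAV-GFP (SD, n = 3) against 8.85 ± 1.38 CPM in AAV-GSTA4 (SD, n = 4), and Ptpn6, the phosphatase SHP-1, at 17.97 ± 2.16 CPM in AAV-GFP (SD, n = 3) against 23.9 ± 4.49 CPM in AAV-GSTA4 (SD, n = 4). Their adjusted p-values were 0.443 and 0.522 in edgeR's test. Of 8 tested ligands and partners of the 10 genes, 5 were negative (median -0.15). Apoe, whose lipoprotein is a ligand of TREM2, was at 5111, 5035 and 3292 CPM in AAV-GFP and at 7364, 5595, 8983 and 8494 CPM in AAV-GSTA4. These groups did not overlap, and the log2 fold change was 0.76 ± 0.34 (SE), for which edgeR's test gave an adjusted p of 0.413. C3, the central complement component, was at 13.2 ± 1.01 CPM in AAV-GFP (SD, n = 3) against 7.22 ± 3.90 CPM in AAV-GSTA4 (SD, n = 4), with an adjusted p of 0.433 in edgeR's test, and Ptprcap, which encodes a protein bound to CD45, had 0 counts in every library.

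**Figure D4:**
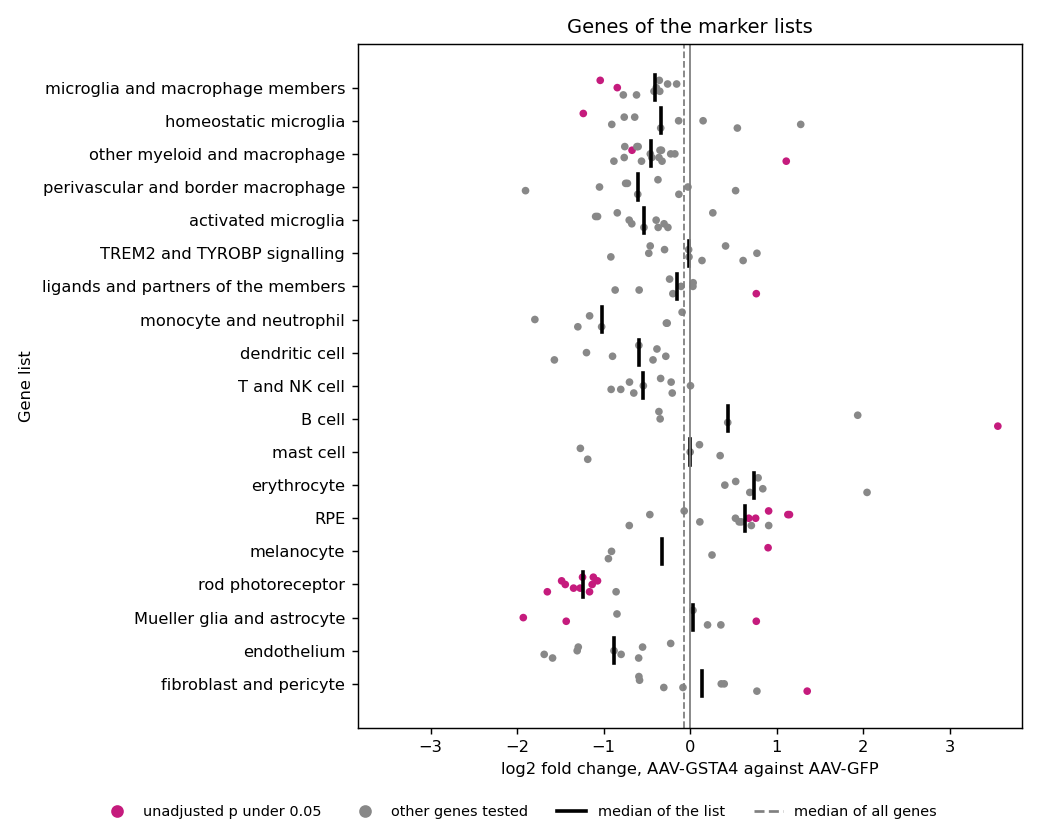
Log2 fold change of every tested gene of the marker lists, AAV-GSTA4 against AAV-GFP (x axis), 1 row per list; pink points have an unadjusted p under 0.05, black bars are list medians and the dashed line is the median of all genes. The rod photoreceptor median, at -1.24, is farther from 0 than that of the microglia and macrophage genes, at -0.40, and the RPE median is 0.64.

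Markers of other cells that the preparation could hold were compared in the same way, and 0 of them passed the adjusted threshold. Of 11 rod genes 11 were negative (median -1.24). Nrl, a rod transcription factor, was at 144 ± 70.6 CPM in AAV-GFP (SD, n = 3) against 46.0 ± 25.0 CPM in AAV-GSTA4 (SD, n = 4), and Rcvrn, which encodes recoverin, at 310 ± 179 CPM in AAV-GFP (SD, n = 3) against 111 ± 19.99 CPM in AAV-GSTA4 (SD, n = 4), each with an adjusted p of 0.363 in edgeR's test. Of 14 RPE genes 11 were positive (median 0.64), and 5 were higher at an unadjusted p under 0.05, where 5.27% of all genes were. Lrat, an enzyme of the visual cycle, was at 1315 ± 553 CPM in AAV-GFP (SD, n = 3) against 2913 ± 551 CPM in AAV-GSTA4 (SD, n = 4), and the transporter gene Slc6a20a at 566 ± 285 CPM in AAV-GFP (SD, n = 3) against 1238 ± 398 CPM in AAV-GSTA4 (SD, n = 4), with adjusted p-values of 0.363 and 0.375 in edgeR's test.

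Markers of blood-derived cells ranged widely in level. The monocyte and neutrophil list summed to 32.5 to 63.5 CPM in AAV-GFP and 12.6 to 35.5 CPM in AAV-GSTA4, and 7 of its 7 tested genes were negative, among them Plac8 and Chil3 with adjusted p-values of 0.432 and 0.539 in edgeR's test. All 7 tested dendritic cell genes were negative, among them H2-Eb1 and Flt3 (adjusted p-values of 0.448 and 0.489 in edgeR's test). T and NK cell genes summed to 12.1 to 15.8 CPM and 8.01 to 13.5 CPM, with 8 of 9 negative and adjusted p-values of 0.560 for Lck and 0.664 for Cd3g in edgeR's test. B cell genes summed to 7.08 to 16.5 CPM and 8.58 to 12.5 CPM. Within that list Ms4a1 was at 0.40 ± 0.36 CPM in AAV-GFP (SD, n = 3), near the floor of 3 counts (0.111 to 0.176 CPM over the libraries), against 1.55 ± 0.535 CPM in AAV-GSTA4 (SD, n = 4), and edgeR's test gave an adjusted p of 0.499. Mast cell genes summed to at most 13.4 CPM, and Cma1 and Cpa3 had adjusted p-values of 0.493 and 0.691 in edgeR's test. Erythrocyte genes summed to 437 to 1039 CPM in AAV-GFP and 423 to 2473 CPM in AAV-GSTA4, ranges that reach above those of the 10 microglia and macrophage genes. All 6 were positive (median 0.74), with adjusted p-values of 0.502 for Alas2 and 0.535 for Slc4a1 in edgeR's test.

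All 9 endothelial genes were negative (median -0.88). AAV-GFP replicate 3 was high for Vwf, at 20.7 CPM against 2.94 and 3.28 CPM in the other 2 AAV-GFP libraries, and for Kdr, at 104 CPM against 12.6 and 11.2 CPM. Their adjusted p-values were 0.427 and 0.479 in edgeR's test. In the lists for melanocytes, glia, and fibroblasts and pericytes, the genes with the smallest p-values were Kit and Ednrb, Rax and Slc1a3, and Pdgfrb and Col1a1, with adjusted p-values from 0.363 to 0.519 in edgeR's test. The part of these cells in the levels of the 10 genes was not tested.

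The genes whose profile over the 7 libraries was most like the mean profile of the 10 were Ccdc173, Lekr1, Tatdn3, Rpl10a and Fam229b. Their root mean square difference in centred log2 CPM was 0.15 to 0.18, against a median of 0.57 over the 11101 genes compared. Rpl10a, a ribosomal protein gene, was at 78.9, 97.9 and 62.8 CPM in AAV-GFP and at 50.4, 67.6, 61.4 and 64.1 CPM in AAV-GSTA4. Of the 10 genes themselves, C1qb was nearest to the mean profile, at 0.10, and Cx3cr1 farthest, at 0.57. Trem2 was at 0.16, and the rest of the 10 lay at 0.30 or more. That is beyond the nearest 1% of the genes compared, which lay within 0.26. This likeness is a description only.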

How the data were processed

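The authors deposited 1 table of raw read counts per gene symbol, which was used as deposited. STAR 2.7.1a and featureCounts 1.6.2 are named in the submitters' processing notes, beside human builds (GRCh38, hg38) and mouse builds (GRCm38, mm10). The annotation release, strand setting and treatment of multi-mapping reads are not given in the sources used here. Per the labels' protocols, RNA was amplified as full-length cDNA by a low-input kit and cut with a transposase. Molecular identifiers are not described, so reads may be PCR copies. Positions assume the mouse build.

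Columns were matched to samples by library name, 1 replicate each. No 2 libraries agreed within sampling noise (lowest chi-square per gene 57.5, genes summing to 20 or more). A symbol on several rows (26 extra rows) kept its plain name on the row with most counts.

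All 7 libraries were fitted with edgeR 4.0.16 (R 4.3.3): group only, TMM scaling, the default expression filter, robust quasi-likelihood test, Benjamini-Hochberg adjustment over 15075 genes, threshold 0.05. A standard error is the fold change over the root of F. Log2 CPM used a prior count of 2, and the floor of 3 counts was 0.111 to 0.176 CPM. Exact permutation tests used all 35 relabellings. The fit was tested on simulated data. At an adjusted p under 0.05 it called 5 of 100 genes changed 2-fold and 73 of 100 changed 4-fold. A draw with no changed genes gave 1 call.

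The 10 genes and all lists were chosen with earlier results of these data known. Named besides the 10 were, per list, genes past the adjusted threshold or else the 2 smallest p-values, and the 5 most alike in profile. The result for 1 gene so named is not reported here. Alternatives were other scalings, filters, replicate blocks, DESeq2 1.42.0, limma 3.58.1 (voom with quality weights), a Y-linked covariate and each library left out. The robust limma fit and the basic-transcript lengths were added after seeing the data.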

Additional observations from a re-analysis of the deposited data

Results flagged for a closer look

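Of 75 results examined in the 4 AAV-GSTA4 libraries for 1 library far from the other 3, 2 stood out, where chance gives about 5% of them. For the ratio of C1qc to C1qb counts, AAV-GSTA4 replicate 1 was at 0.862 and the others at 0.506 to 0.554, so the gap was 0.865 of the whole range. For the summed B cell markers, AAV-GSTA4 replicate 3 was at 8.58 CPM and the others at 12.2 to 12.5 CPM, so the gap was 0.91 of the range.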

How the results depend on the processing

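In the edgeR fit to all libraries 0 genes had an adjusted p under 0.05. The number was 199 with DESeq2, 1 with a replicate block by either numbering, 0 to 1 without single libraries (1 without AAV-GSTA4 replicate 3), and 146 with limma-voom and robust variances, chosen after seeing the data. It was 0 with plain limma-voom, the other scalings and filters, and the Y-linked covariate. The count of the 10 genes lower at an unadjusted p under 0.05 was 2, and was 6 with library totals, 7 with either limma-voom fit and 0 with a replicate block by title number. The share of all genes lower at that level was 6.63%, and in those fits 14.1%, 11.5% (11.4% robust) and 3.69%. It was 0 to 3 without single libraries: 0 without AAV-GFP replicate 2, 1 without AAV-GSTA4 replicate 1 or replicate 4. The cause was not tested. The median log2 fold change of the 10 genes was -0.60 to -0.21, and the difference in summed level -0.62 to -0.17, without single libraries. Neither moved by more than the spread between replicates under any alternative run. The pooled SD of the mean log2 CPM of the 10 genes was 0.34, nearly as large as the differences themselves. Staying within that spread therefore says little about how stable they are.

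Of 170 fits of the 10 genes under an alternative, 1 gave an adjusted p under 0.05, and DESeq2 gave Cx3cr1 no adjusted p. The gene under 0.05 was C1qc, at 0.0456 with limma-voom and robust variances (0.0589 in plain limma-voom, and up to 0.865 elsewhere). The sign changed for Cx3cr1 with either limma-voom fit (0.0117) and without AAV-GFP replicate 3 (-0.65 to 0.083 over single libraries left out), and without AAV-GFP replicate 2 for Tyrobp (-0.71 to 0.0114) and Cd68 (-0.37 to 0.00273). Among the other named genes it changed for Chil3 (0.30) and Kdr (0.22) with either limma-voom fit, for Kdr (-1.75 to 0.54) and Uty (-0.12) without AAV-GFP replicate 3, for Uty (-0.14 to 9.96) without AAV-GFP replicate 2, and for Kdm5d with the replicate block by title number (-1.18) or the Y-linked covariate (-0.073). Lrat, Nrl and Rcvrn passed in DESeq2, and Nrl and Rax in limma-voom with robust variances.

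Deviations of same-numbered libraries from their group means correlated over genes at -0.0889 to 0.00904 by title and -0.128 to 0.0146 by library name. Libraries with different numbers were not compared, so these values cannot tell whether equal numbers pair the libraries. The replicate blocks left 1 AAV-GSTA4 library without a partner. Cx3cr1 rested on 34 to 134 counts per library, with the lowest maximum among the 10 genes.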
